A study of Mus musculus with 72 samples.

Results

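The genes described here make, bind and break down retinoic acid, and they were followed in mouse embryonic stem cells with and without the nuclear pore protein Nup133. The 9 genes, of 45321 in the table, were named singly: Cyp26a1, Cyp26b1, Cyp26c1, Dhrs3, Rdh10, Aldh1a2, Crabp1, Crabp2 and Stra6. They were chosen by gene symbol, and each was represented by its transcript with the highest total count. Of the 9, 8 passed the filter on low counts and were tested, and Cyp26c1 did not. Messenger RNA of 18 biological samples had been sequenced, 3 for each of 6 groups of genotype and day.

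The controls were 2 biological replicates of HM1 (Nup133+/+, 40 chromosomes, XY) and line 1A4, derived from a blastocyst (Nup133+/+, Sox1gfp/+, 40 chromosomes, XY). Knockout lines 14 and 19 had been made from HM1 with CRISPR/Cas9. Both were Nup133-/- and XY, and the karyotype of 40 chromosomes was labelled as likely for line 19. Knockout line 319 was blastocyst-derived (Nup133merm/merm, Sox1gfp/+, 42 chromosomes, XX) with an extra copy of chromosomes 8 and 12. None of the 9 genes lies on chromosome 8, 12 or X. At day 0 the cells came from serum with LIF, the cytokine that keeps stem cells undifferentiated, after plating to remove the feeder fibroblasts. At day 2 they had grown without LIF in N2B27, a serum-free medium for neural differentiation. At day 3 they had also received 1 µM all-trans retinoic acid for 24 h. The step from day 2 to day 3 holds both the added retinoic acid and a further day of culture, which cannot be told apart. Each line stands for 1 clone or derivation, and the 2 HM1 series are the same line, so p-values measure the spread between these samples and not between independent knockouts at large.

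Retinoic acid is made from vitamin A in steps. Stra6 carries retinol into cells, Rdh10 oxidizes it to retinal, Dhrs3 reduces retinal back to retinol, and Aldh1a2 oxidizes retinal to retinoic acid. Crabp1 and Crabp2 bind retinoic acid in the cytoplasm, and Crabp2 hands it to the nuclear receptors, which act on response elements in DNA. The Cyp26 enzymes hydroxylate retinoic acid for disposal, and Cyp26a1 is a classical direct target of the receptors.

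Promoter sequence is shown for Cyp26a1 and Cyp26b1, since both genes of the degrading family were higher after retinoic acid, and of the pair Cyp26a1 was called by genotype and Cyp26b1 was not. The windows are RefSeq promoters on GRCm38.p6, from 250 bases before to 50 bases after the start, on the strand of the gene. Entries were found for 7 of the 9 genes, in 12 windows. Rdh10 and Crabp2 had no entry. Cyp26a1 is shown at chr19:37697558-37697857 on the plus strand and Cyp26b1 at chr6:84593761-84594060 on the minus strand. Capitals mark the units of a direct repeat.

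Cyp26a1: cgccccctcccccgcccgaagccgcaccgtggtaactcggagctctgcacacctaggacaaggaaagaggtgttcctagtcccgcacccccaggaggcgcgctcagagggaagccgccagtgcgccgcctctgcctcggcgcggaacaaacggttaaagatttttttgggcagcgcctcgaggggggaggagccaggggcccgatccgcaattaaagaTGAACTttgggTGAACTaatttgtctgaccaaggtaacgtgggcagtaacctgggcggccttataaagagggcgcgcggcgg

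Cyp26b1: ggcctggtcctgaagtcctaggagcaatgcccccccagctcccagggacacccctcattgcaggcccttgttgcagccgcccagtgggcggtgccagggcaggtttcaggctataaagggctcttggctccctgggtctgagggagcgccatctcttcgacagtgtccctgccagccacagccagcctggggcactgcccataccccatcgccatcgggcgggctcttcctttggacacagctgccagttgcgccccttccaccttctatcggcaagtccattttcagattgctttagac

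The search took a pair of 6-base units (unit AGGTCA, unit AGTTCA, unit GGGTCA or unit GGTTCA) in the same orientation, spaced by 5, 2 or 1 bases, on either strand. Of the 12 windows, 1 held a match, and it was that of Cyp26a1. The match is the unit AGTTCA on the minus strand, repeated after 5 bases, and it spans chr19:37697776-37697792, from 32 to 16 bases before the start. Among 32851 promoters in the same table, 0.0974% held a repeat spaced by 5 bases and 0.588% a repeat with any of the 3 spacings. The window of Cyp26b1 held no such repeat, which says nothing about binding there or elsewhere.

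The 18 samples held between 16.5 M counts (line 19, day 2) and 54.4 M counts (line 14, day 3) in genes. The first principal component carried 47.2% of the variance and ordered the samples by day. Line 19 at day 2 stood apart on the second component, at -110.8, while the other day 2 samples lay between -57.3 and -35.3. Nup133 itself was at most 37.1 CPM in a knockout sample and at least 179.5 CPM in a control sample. CPM is counts per 1e6 gene counts after TMM scaling. The summed level of 8 pluripotency markers at day 0 was 4925 to 5375 CPM in controls and 5445 to 6997 CPM in knockouts. Of the 8, 3 were higher without overlap (Pou5f1, Klf4 and Esrrb), where 17.8% of all genes did not overlap, and 0 were called. At day 3 the sum was 653.1 to 756.3 CPM in controls and 330.1 to 989.3 CPM in knockouts. In bulk RNA, fewer cells of a type and less RNA per cell cannot be told apart.

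Levels of different genes were compared per kilobase of transcript. In control cells at day 0, the order began with Crabp1 at 17.3 ± 1.91 CPM per kb (mean ± SD, n = 3), followed by Cyp26a1 at 5.21 ± 2.23 and Crabp2 at 4.37 ± 0.604 CPM per kb. The last 2 of these did not differ beyond their spread. Rdh10 stood at 2.98 ± 0.854, Aldh1a2 at 1.03 ± 0.345 and Dhrs3 at 0.681 ± 0.338 CPM per kb. At the bottom were Cyp26b1 at 0.154 ± 0.0251, Stra6 at 0.130 ± 0.0278 and Cyp26c1 at 0.0195 ± 0.0229 CPM per kb, of which Cyp26b1 and Stra6 were within each other's spread.

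After retinoic acid the control order was another. Crabp2 led at day 3 with 1054 ± 262.8 CPM per kb. Cyp26a1 followed at 35.5 ± 2.40, and then came Crabp1 at 27.1 ± 3.66, Stra6 at 24.9 ± 5.25 and Dhrs3 at 23.8 ± 2.49 CPM per kb. Crabp1 and Stra6, and Stra6 and Dhrs3, were neighbours that did not differ beyond their spread. Cyp26b1 reached 2.76 ± 0.563 CPM per kb, above Rdh10 at 1.76 ± 0.262 and Aldh1a2 at 0.851 ± 0.202, and Cyp26c1 stayed lowest at 0.0945 ± 0.0482.

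**Figure D1:**
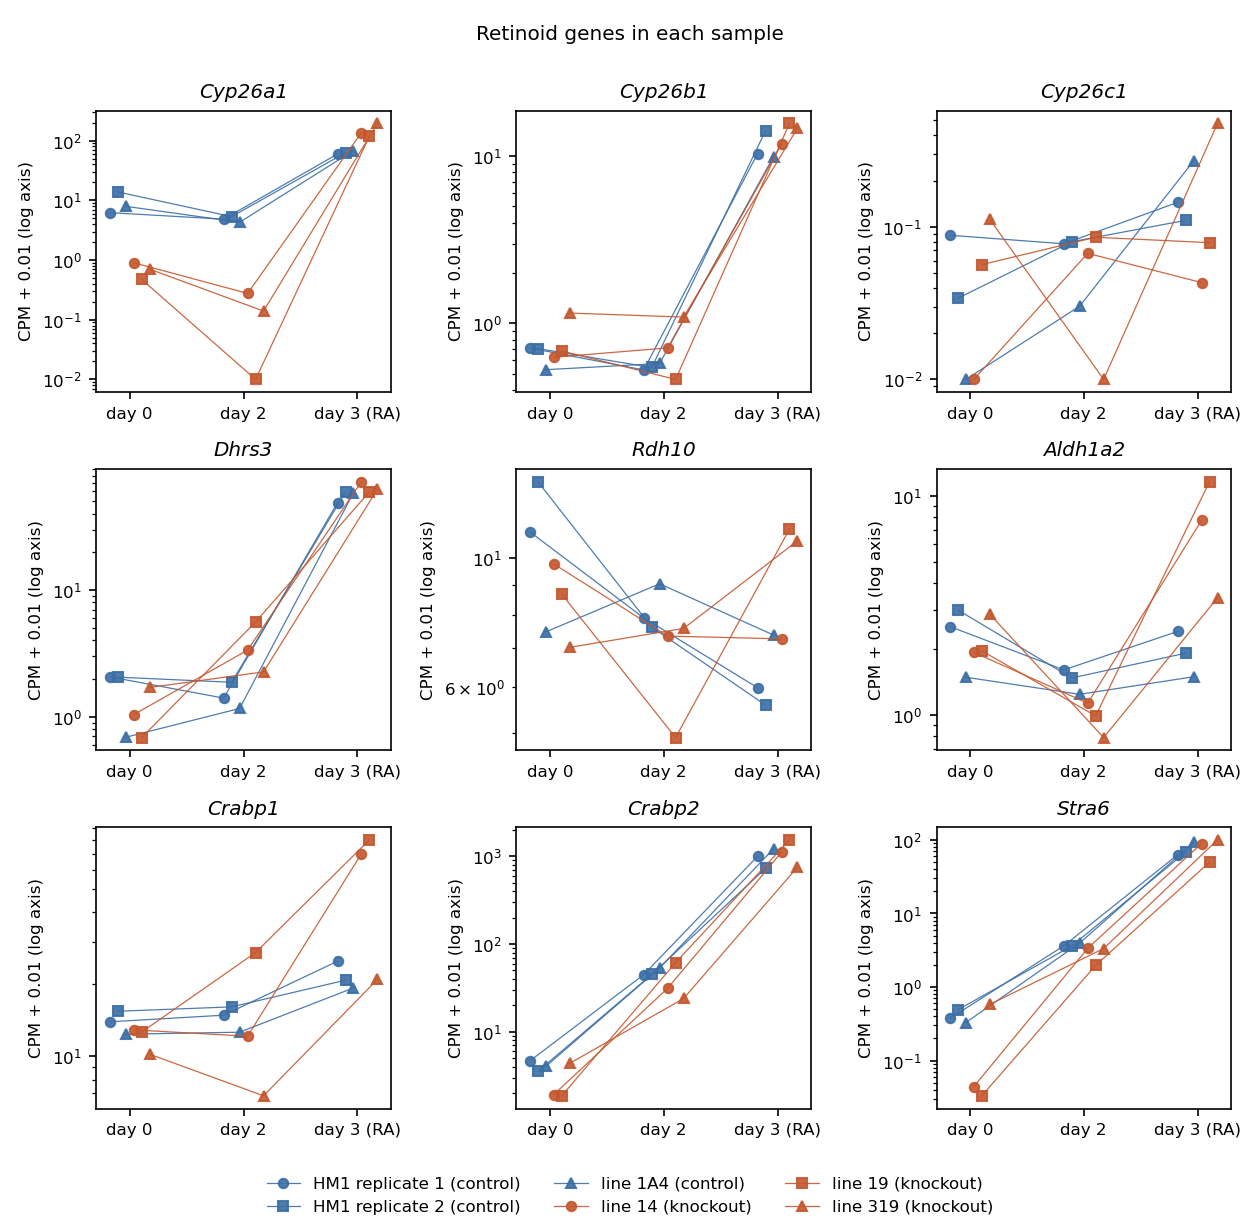
Level of each of the 9 genes in the 18 samples, as CPM + 0.01 on a log axis against day, with 1 line per cell series (blue for control, orange for knockout; circles and squares for HM1 and its derivatives, triangles for blastocyst-derived lines). Cyp26a1 in knockout samples lies below all control samples at days 0 and 2, between 0 and 0.891 CPM, and above them at day 3, between 120.0 and 194.7 CPM.

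Cyp26a1, the main retinoic acid hydroxylase of the early embryo, was lower in the knockouts before retinoic acid and higher after it. At day 0 the control samples were at 6.21 and 13.8 CPM (HM1 replicates 1 and 2) and 7.94 CPM (line 1A4), and knockout lines 14, 19 and 319 were at 0.891, 0.465 and 0.693 CPM. The groups did not overlap. The knockout value fell by 3.80 on the log2 scale (SE 0.37, edgeR quasi-likelihood adjusted p = 7.54e-05). Cyp26a1 was 1 of the 8 tested genes called at day 0, and 0.854% of all genes tested were called (0.788% as lower). It was also the 1 gene of the 8 whose groups did not overlap at day 0, as they did not for 17.8% of all genes tested.

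At day 2 the control samples held 4.83, 5.32 and 4.28 CPM of Cyp26a1. The knockout lines 14, 19 and 319 held 14, 0 and 3 counts, which is 0.266, 0 and 0.130 CPM. The 0 counts of line 19 allow up to 0.226 CPM (3 counts of its total). The knockout value fell by 4.71 on the log2 scale (SE 0.46, edgeR adjusted p = 2.25e-04). Again Cyp26a1 was 1 of 8 called, where 1.6% of all genes tested were called (0.963% as lower). The call was lost when day 2 was fitted by itself (-4.81, adjusted p = 0.229), a fit that called 0 genes of the whole table.

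At day 3, after retinoic acid, Cyp26a1 stood at 59.8, 62.9 and 68.3 CPM in the controls and at 136.5, 120.0 and 194.7 CPM in lines 14, 19 and 319. All 3 knockout samples were above all 3 control samples. The difference was 1.24 on the log2 scale (SE 0.30, edgeR adjusted p = 0.0281). This call was lost without HM1 replicate 1 (adjusted p = 0.17), HM1 replicate 2 (0.132), line 1A4 (0.132), line 14 (0.0582) or line 319 (0.0715), and within the HM1-derived samples (0.13), with log2 values from 0.97 to 1.27.

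Within the controls, Cyp26a1 fell by 0.96 from day 0 to day 2 (SE 0.31, edgeR adjusted p = 0.0236) and rose by 3.72 from day 2 to day 3 (SE 0.33, adjusted p = 1.80e-06). The first of these calls was lost without HM1 replicate 1 (adjusted p = 0.0647), without HM1 replicate 2 (0.264), where the value was -0.62, without line 1A4 (0.0926) and within the HM1-derived samples (0.0929). In the knockouts it fell by 1.87 between days 0 and 2 (SE 0.53, adjusted p = 0.012), a call lost without line 319 (0.0584) and within the HM1-derived samples (0.082). It then rose by 9.67 after retinoic acid (SE 0.48, adjusted p = 4.18e-09), a value that starts from at most 14 counts per sample. In order of mean level, Cyp26a1 ran from knockout day 2 (0.132 ± 0.133 CPM) over knockout day 0 (0.683 ± 0.214), control day 2 (4.81 ± 0.521), control day 0 (9.33 ± 3.999) and control day 3 (63.7 ± 4.31) to knockout day 3 (150.4 ± 39.3), and no neighbouring groups overlapped.

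Markers of other cell types were summed in the same samples. The 8 mesendoderm and primitive streak markers summed to 55.8 to 116.5 CPM in day 0 controls and 12.5 to 16.9 CPM in day 0 knockouts, to 21.2 to 38.1 against 9.73 to 25.4 CPM at day 2, and to 20.5 to 29.2 against 36.5 to 85.1 CPM at day 3. At day 0, 5 of the 7 tested markers were called lower in the knockouts (T, Mixl1, Cer1, Lhx1 and Foxa2), where 0.788% of all genes were, and 6 of the 7 were lower without overlap, against 17.8% of all genes not overlapping in either direction. Cer1 had 0 counts in all 3 knockouts. At day 2, 3 of the 7 tested markers were called lower (T, Cer1 and Lhx1), where 0.963% of all genes were. Of the 8 markers, 4 were lower without overlap at day 2 (T, Cer1, Lhx1 and Foxa2), 0 were higher and 4 overlapped. Of all genes tested, 21.7% did not overlap at day 2 in either direction. The higher sum at day 3 was mostly Lhx1, at 24.6 to 68.1 CPM in knockouts and 5.11 to 15.5 CPM in controls, the 1 marker of the list called then. Without Lhx1, an alternative chosen after the data were seen, the sums overlapped at day 3 (13.7 to 15.4 CPM in controls, 10.95 to 17.1 CPM in knockouts) and at day 2 (16.3 to 33.2 against 9.73 to 24.9 CPM) and did not at day 0 (49.6 to 102.1 against 12.3 to 16.6 CPM). At day 3 T, the gene of the streak factor brachyury, was at 3.44 to 4.28 CPM in controls and 0.992 to 2.90 CPM in knockouts. Of the 8 markers, 4 were then higher in the knockouts without overlap (Lhx1, Eomes, Gsc and Cer1). Another 2 were lower without overlap (T and Mesp1), and Mixl1 and Foxa2 overlapped. Of all genes tested, 35.2% did not overlap at day 3 in either direction. Eomes, Gsc, Cer1 and T were not called, and Mesp1 was not tested. Fibroblast markers, 12 in all, summed to 167.8 to 347.3 CPM in day 0 controls and 118.9 to 196.3 CPM in day 0 knockouts, 184.2 to 252.7 against 104.2 to 136.0 CPM at day 2, and 274.6 to 390.5 against 162.6 to 259.8 CPM at day 3. Of this list, the collagens Col1a1 and Col1a2 overlapped between genotypes at each day and were detected in each knockout sample. Of 11 tested fibroblast markers, 3 were called lower at days 2 and 3 (Postn, Acta2 and Tagln). Of all genes, 1.6% and 5.2% were called at those days. At day 0, 0 of the 11 were called. Of the 12, 3 were lower without overlap at day 0 (Postn, Tagln and Twist2), 0 were higher and 9 overlapped. At day 2, 4 were lower without overlap and 1 was higher. At day 3, 4 were lower without overlap, and Col3a1, Fbn1 and Prrx1 were higher without overlap and not called. Of all genes tested, 17.8%, 21.7% and 35.2% did not overlap at days 0, 2 and 3. The part of either list in the difference of Cyp26a1 was not tested.

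Cyp26b1, which degrades retinoic acid in other embryonic tissues, showed no called difference by genotype. It stood at 0.702, 0.697 and 0.519 CPM in day 0 controls and 0.617, 0.674 and 1.14 CPM in the knockouts, where line 319 was the highest sample. At day 2 all samples lay between 0.452 and 1.08 CPM. At day 3 the controls held 10.3, 14.2 and 9.92 CPM and the knockouts 11.8, 15.7 and 14.7 CPM, so the groups overlapped. The log2 differences were 0.31 (SE 0.31), 0.49 (SE 0.32) and 0.28 (SE 0.26) at days 0, 2 and 3, with edgeR adjusted p of 0.855, 0.397 and 0.577. With retinoic acid Cyp26b1 rose by 4.41 in the controls (SE 0.31, adjusted p = 1.21e-07) and by 4.20 in the knockouts (SE 0.31, adjusted p = 2.01e-07).

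Cyp26c1, the third enzyme of the family and a neighbour of Cyp26a1 on chromosome 19, was barely detected. It had 62 counts in all 18 samples together, and from 0 to 18 per sample. The 18 counts were those of line 319 at day 3 (0.466 CPM), followed by 10 counts in line 1A4 at day 3 (0.260 CPM). In 3 samples it had 0 counts, which allow at most 0.130 CPM. No difference of this gene was tested. In controls it lay between 0.0202 and 0.0698 CPM at day 2 and between 0.100 and 0.260 CPM at day 3. These levels rest on few counts and are not read further.

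The makeup of the Cyp26 family followed from these levels. Per kb, Cyp26a1 made up 91.0% to 97.7% of the summed family in the 9 control samples. In knockouts it made up 77.0%, 57.9% and 53.8% at day 0 (lines 14, 19 and 319), 42.4%, 0% and 21.8% at day 2, and 94.6% to 96.6% at day 3. The family sum was 3.68 to 7.91 CPM per kb in day 0 controls and 0.448 to 0.720 in day 0 knockouts. At day 2 it was 2.54 to 3.14 against 0.152 to 0.350 CPM per kb, and at day 3 it was 36.0 to 40.7 against 70.8 to 112.5 CPM per kb. The 2 genotypes did not overlap in this sum at any day.

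**Figure D2:**
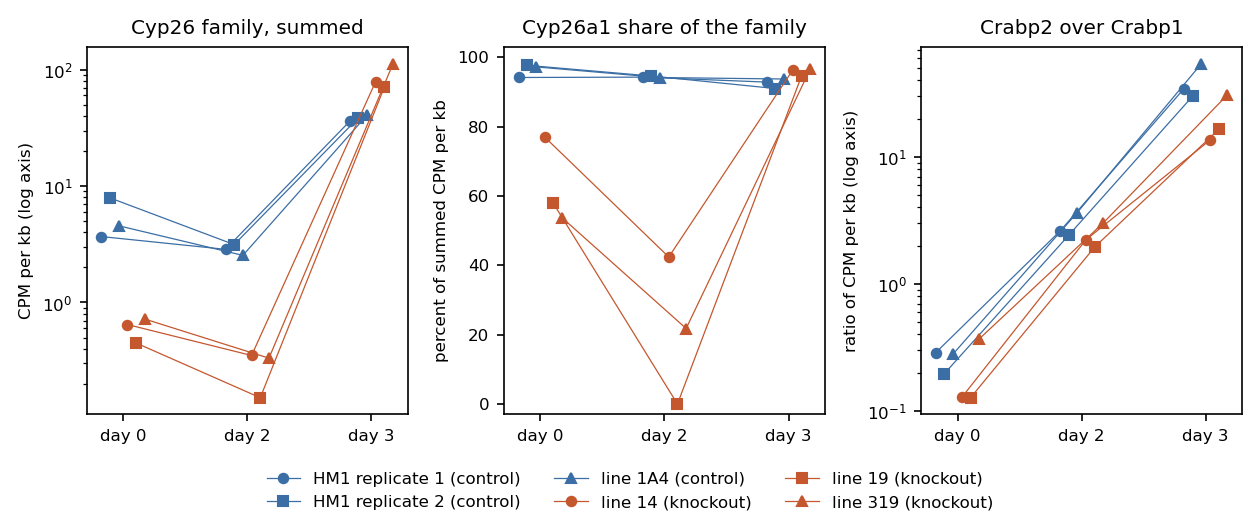
Left, summed CPM per kb of the 3 Cyp26 genes (log axis); middle, percent of that sum held by Cyp26a1; right, ratio of Crabp2 to Crabp1 in CPM per kb (log axis); each against day with 1 line per cell series. The Cyp26a1 share stays between 91.0% and 97.7% in control samples and drops to between 0% and 42.4% in day 2 knockouts, and the ratio climbs with day in all 6 series.

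Dhrs3, the retinal reductase, rose after retinoic acid in both genotypes. In controls it stood at 2.05, 2.04 and 0.678 CPM at day 0, 1.39, 1.86 and 1.15 CPM at day 2, and 49.0, 59.4 and 58.7 CPM at day 3. In lines 14, 19 and 319 it stood at 1.03, 0.674 and 1.69 CPM at day 0, 3.35, 5.58 and 2.25 CPM at day 2, and 71.8, 59.7 and 62.5 CPM at day 3. The knockouts were thus above all controls at days 2 and 3, and overlapped them at day 0. Of the 8 tested genes, 5 had groups that did not overlap at day 2 (Dhrs3 higher, Cyp26a1, Rdh10, Aldh1a2 and Stra6 lower), against 21.7% of all genes tested. At day 3 there were 3 (Cyp26a1, Dhrs3 and Aldh1a2, all higher), against 35.2%.

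Dhrs3 rose by 5.26 in the controls with retinoic acid (SE 0.41, edgeR adjusted p = 4.38e-07). In the knockouts it rose by 1.61 from day 0 to day 2 (SE 0.39, adjusted p = 0.00502), a step at which the controls differed by -0.13 (SE 0.38, adjusted p = 0.825), and by 4.17 with retinoic acid (SE 0.39, adjusted p = 2.43e-06). The knockout call from day 0 to day 2 was lost without line 14 (adjusted p = 0.054) and without line 19 (0.0568), where the value was 0.98. The genotype difference at day 2, 1.30 (SE 0.38), missed the threshold (adjusted p = 0.0889). DESeq2 called it (adjusted p = 0.0136), as did the edgeR fit without line 319 (0.0351). The differences at days 0 and 3 were -0.44 (SE 0.40, adjusted p = 0.829) and 0.21 (SE 0.33, adjusted p = 0.772).

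Rdh10, the retinol dehydrogenase, had the narrowest range of the 8 tested genes. Over all 18 samples it lay between 4.90 CPM (line 19, day 2) and 13.6 CPM (HM1 replicate 2, day 0). It was not called in any of the 9 comparisons. At day 3 the controls held 5.98, 5.58 and 7.37 CPM and the knockouts 7.26, 11.2 and 10.7 CPM, so lines 19 and 319 were above the controls and line 14 was within them. That difference was 0.62 (SE 0.25, edgeR adjusted p = 0.163). The unadjusted p of 0.0268 did not hold after adjustment over all genes.

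Aldh1a2, which makes retinoic acid from retinal, was higher in the knockouts at day 3. Control samples stood at 2.40, 1.90 and 1.48 CPM and lines 14, 19 and 319 at 7.72, 11.6 and 3.42 CPM. All 3 knockout samples were above the controls, with line 319 the lowest of them. The difference was 1.91 on the log2 scale (SE 0.34, edgeR adjusted p = 0.00719). It was not called without HM1 replicate 1 (adjusted p = 0.089) or HM1 replicate 2 (0.105), with values of 2.02 and 1.84. Aldh1a2 was 1 of 3 tested genes called at day 3, with Cyp26a1 and Crabp1, all 3 higher, and 5.2% of all genes tested were called then (2.75% as higher).

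Before retinoic acid, Aldh1a2 did not differ by a called amount. At day 0 the controls held 2.52, 3.00 and 1.48 CPM and the knockouts 1.92, 1.95 and 2.88 CPM. At day 2 they held 1.60, 1.46 and 1.23 CPM against 1.12, 0.980 and 0.778 CPM, so the knockouts were lower without overlap, by -0.57 (SE 0.36, edgeR adjusted p = 0.385). Aldh1a2 fell by 1.29 from day 0 to day 2 in the knockouts (SE 0.36, adjusted p = 0.0113) and rose by 2.90 with retinoic acid (SE 0.37, adjusted p = 4.15e-05). In the controls the same steps gave -0.68 (SE 0.34, adjusted p = 0.137) and 0.42 (SE 0.34, adjusted p = 0.427).

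Crabp1, the cytoplasmic binding protein, was the third gene called at day 3. Controls stood at 25.0, 20.8 and 19.3 CPM. Lines 14 and 19 stood at 70.4 and 80.4 CPM and line 319 at 20.96 CPM, within the control range. The difference over all samples was 1.26 (SE 0.34, edgeR adjusted p = 0.0454). It was lost without any 1 of the 3 control series (adjusted p from 0.0602 to 0.298), without line 14 (0.138), without the background term (0.0843) and on counts summed over transcripts (0.0632). The difference between the backgrounds was itself not called (-1.60, edgeR adjusted p = 0.352).

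At day 0 Crabp1 lay at 13.9, 15.4 and 12.4 CPM in controls and 12.9, 12.6 and 10.2 CPM in knockouts. At day 2 the controls held 14.9, 16.1 and 12.6 CPM and the knockouts 12.1, 27.1 and 6.83 CPM. Line 19 was then the highest and line 319 the lowest of the 6 samples. The log2 differences were -0.23 (SE 0.34, edgeR adjusted p = 0.934) and -0.04 (SE 0.34, adjusted p = 0.965). With retinoic acid Crabp1 rose by 1.89 in the knockouts (SE 0.35, adjusted p = 9.50e-04), and the control change was 0.59 (SE 0.34, adjusted p = 0.246). The 6 neural progenitor markers summed to 618.3 and 918.2 CPM in lines 14 and 19 at day 3 and to 271.0 CPM in line 319, against 294.0 to 349.0 CPM in controls. Line 319 was below the controls in this sum. Zic1 (2.94, SE 0.44, adjusted p = 0.00297) and Pax6 (2.25, SE 0.45, adjusted p = 0.0118) were called higher, 2 of 6, where 2.75% of all genes were. The groups overlapped for Pax6, Sox1, Nes and Hes5, and Sox3 stood lower without overlap, at 25.5 to 36.7 against 41.5 to 46.1 CPM, and was not called. None of the 6 was at 0 in a day 3 knockout sample. The 7 primitive endoderm markers summed to 66.5 to 71.3 CPM in day 3 knockouts and 50.7 to 58.5 CPM in day 3 controls. The part of these lists in the differences was not tested.

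Crabp2, which carries retinoic acid to its receptors, had the highest level per kb of the 9 genes at day 3 and did not differ by a called amount between genotypes. At day 0 it was at 4.65, 3.53 and 4.03 CPM in controls and 1.92, 1.86 and 4.36 CPM in lines 14, 19 and 319. At day 2 it was at 44.8, 45.0 and 53.4 CPM against 31.3, 61.5 and 24.0 CPM, and at day 3 at 1000.4, 728.1 and 1216 CPM against 1110, 1540 and 750.7 CPM. The genotypes overlapped at each day. Crabp2 rose by 3.55 from day 0 to day 2 in controls (SE 0.40, edgeR adjusted p = 1.39e-05) and by a further 4.36 with retinoic acid (SE 0.41, adjusted p = 3.00e-06). In knockouts these steps were 3.83 (SE 0.41, adjusted p = 7.38e-06) and 4.87 (SE 0.42, adjusted p = 9.71e-07).

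The ratio of Crabp2 to Crabp1, per kb, passed from the side of Crabp1 to that of Crabp2 in every series. In controls it was 0.197 to 0.288 at day 0, 2.41 to 3.65 at day 2 and 30.1 to 54.2 at day 3. In knockouts it was 0.127 to 0.369, 1.95 to 3.03 and 13.6 to 30.9. At day 3 lines 14 and 19 (13.6 and 16.5) lay under all controls, and line 319 (30.9) was inside their range.

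Stra6, the receptor that takes up retinol from its carrier protein, rose at the same steps as Crabp2. Controls held 0.364, 0.481 and 0.319 CPM at day 0, 3.62, 3.60 and 3.96 CPM at day 2, and 63.0, 68.1 and 92.4 CPM at day 3. Lines 14, 19 and 319 held 0.0343, 0.0232 and 0.571 CPM at day 0, 3.35, 1.96 and 3.33 CPM at day 2, and 89.4, 49.9 and 100.4 CPM at day 3. The day 0 values of lines 14 and 19 were 1 count each, and line 319 was the highest of the 6 samples. Stra6 rose by 3.20 between days 0 and 2 (SE 0.48, edgeR adjusted p = 1.26e-04) and by 4.29 with retinoic acid (SE 0.42, adjusted p = 4.89e-06) in controls. In knockouts it rose by 3.75 (SE 0.52, adjusted p = 6.28e-05) and 4.74 (SE 0.44, adjusted p = 2.07e-06).

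The genotype differences of Stra6 were -0.90 (SE 0.61), -0.34 (SE 0.40) and 0.10 (SE 0.36) at days 0, 2 and 3, with edgeR adjusted p of 0.714, 0.657 and 0.911. At day 0 it was called lower within the HM1-derived samples (-3.77, adjusted p = 0.0389) and without line 319 (-3.62, adjusted p = 0.0282). Those fits rest on the single counts of lines 14 and 19.

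**Figure D3:**
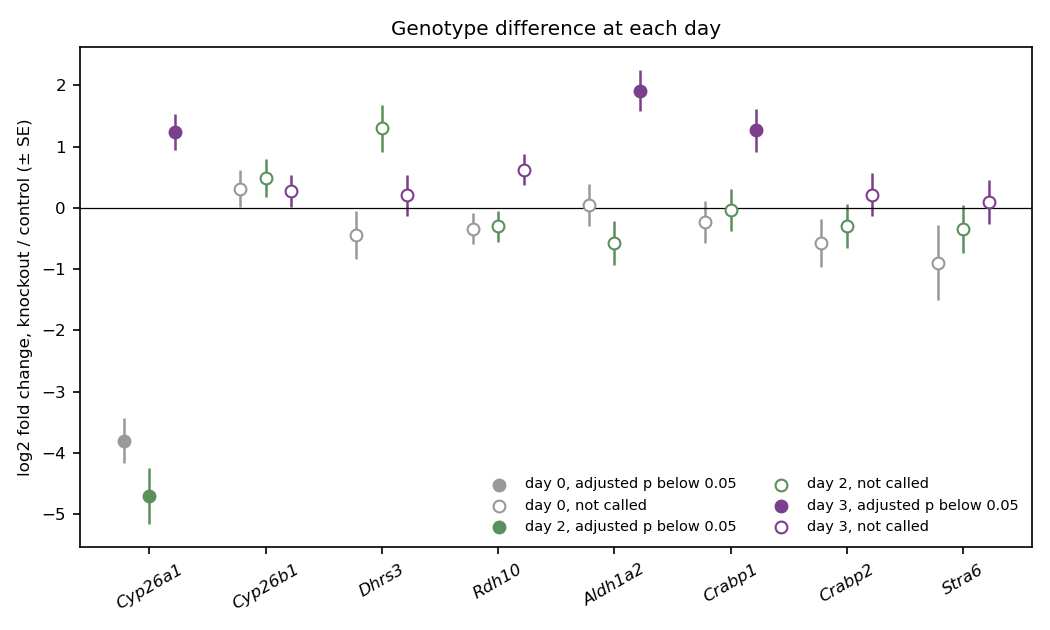
Log2 fold change of knockout over control with its standard error (vertical axis) for the 8 tested genes at days 0, 2 and 3 (grey, green, purple), from 1 edgeR fit over 18 samples; filled circles have an adjusted p below 0.05. The filled circles are Cyp26a1 at -3.80, -4.71 and 1.24, and Aldh1a2 at 1.91 and Crabp1 at 1.26 at day 3.

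Over all genes, the day steps gave more calls than the genotype comparisons, so each count is set beside its share. By genotype, 1, 1 and 3 of the 8 were called at days 0, 2 and 3. The shares of all genes were 0.854%, 1.6% and 5.2%. From day 0 to day 2, 3 of the 8 tested genes were called in the controls (Crabp2 and Stra6 higher, Cyp26a1 lower), where 35.2% of all genes tested were called (19.7% higher, 15.5% lower). These 3 are 37.5% of the 8, near the share of all genes. In the knockouts 5 of 8 were called over the same step (Dhrs3, Crabp2 and Stra6 higher, Cyp26a1 and Aldh1a2 lower), against 35.9% of all genes (20.8% higher, 15.1% lower). With retinoic acid, 5 of 8 were called in the controls, all higher: Cyp26a1, Cyp26b1, Dhrs3, Crabp2 and Stra6. Of all genes tested, 21.4% were called in that step and 12.5% as higher. In the knockouts 7 of 8 were higher, all but Rdh10 (0.55, SE 0.26, edgeR adjusted p = 0.109), against 33.6% of all genes called and 17.6% called higher. The median log2 change of the 8 tested genes was 4.01 in controls and 4.19 in knockouts, beside 0.004 and 0.0027 for all genes tested.

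Whether the genotype difference itself changed between days was tested directly. From day 2 to day 3 it changed for Cyp26a1 by 5.94 (SE 0.55, edgeR adjusted p = 2.33e-04), toward the knockouts. That was 1 of 8 tested, while 0.0383% of all genes, 7 in number, were called. The adjusted p stayed between 2.80e-21 and 0.0252 over the 17 alternatives. Aldh1a2 moved the same way by 2.49 (SE 0.49) and missed the threshold in the edgeR fit (adjusted p = 0.138). It was called with DESeq2 (adjusted p = 0.00164), without a filter on low counts (0.0419), within the HM1-derived samples (0.0417) and without line 319 (0.00841), and its adjusted p over all alternatives ran from 0.00164 to 0.934.

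For the other tested genes the change between days 2 and 3 was 1.30 for Crabp1 (SE 0.48), 0.92 for Rdh10 (SE 0.36), -1.09 for Dhrs3 (SE 0.50), and between -0.21 and 0.51 for Cyp26b1, Crabp2 and Stra6, none called by edgeR. From day 0 to day 2, edgeR called 0 of 8, against 0.0219% of all genes, and DESeq2 and limma-voom also called 0. At an unadjusted p under 0.05 there was 1, Dhrs3, at 1.74 (SE 0.55, unadjusted p = 0.00621, adjusted p = 0.495). The share of all genes under that unadjusted threshold is not given here.

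**Figure D4:**
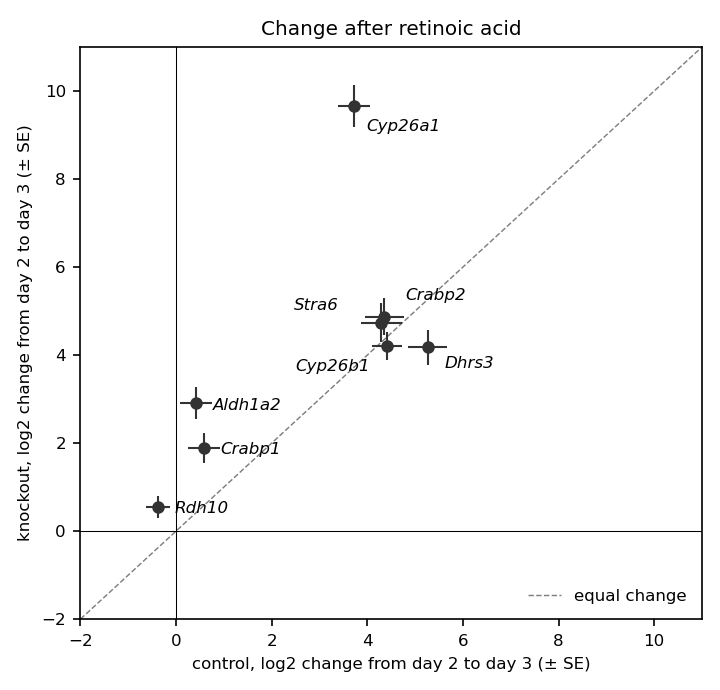
Log2 change from day 2 to day 3 in controls (horizontal) and in knockouts (vertical) for the 8 tested genes, with standard errors from 1 edgeR fit; the dashed line marks equal change. Cyp26a1 stands far above the line (3.72 in controls, 9.67 in knockouts), Aldh1a2 (0.42 and 2.90) and Crabp1 (0.59 and 1.89) lie above it, and Dhrs3 (5.26 and 4.17) lies below it.

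Each knockout line was also set against the controls of its own background, HM1 for lines 14 and 19 and line 1A4 for line 319. These values carry no test of their own. For Cyp26a1 the 3 lines shared a direction at each day: -3.31, -4.17 and -3.42 at day 0 for lines 14, 19 and 319, then -4.01, -6.61 and -4.57 at day 2, and 1.15, 0.97 and 1.51 at day 3. The -6.61 comes from the sample with 0 counts and depends on the prior count of 2. Aldh1a2 at day 3 was at 1.83, 2.41 and 1.17, and Dhrs3 at day 2 at 1.03, 1.76 and 0.93. Crabp1 at day 3 was at 1.62 and 1.82 in lines 14 and 19 and at 0.12 in line 319.

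The values of line 319 and of lines 14 and 19 had opposite signs for several genes. At day 0 Stra6 was at -2.44 and -2.64 in lines 14 and 19 and at 0.75 in line 319, Dhrs3 at -0.96 and -1.53 against 1.26, and Aldh1a2 at -0.51 and -0.48 against 0.94. Crabp2 at day 3 was at 0.38 and 0.85 against -0.70. The difference between backgrounds was tested with a fit of 12 groups, chosen after the data were seen, in which the blastocyst-derived genotypes have 1 sample per day and are assumed to vary like the others. A missing call in such a fit does not show that the backgrounds act alike. At no day did it call any of the 8 tested genes in edgeR, the one tool run, while 177, 100 and 4 genes of the whole table were called at days 0, 2 and 3. The lowest adjusted p were those of Dhrs3 (2.61, SE 0.58, adjusted p = 0.0712) and Stra6 (4.62, SE 1.05, adjusted p = 0.0771) at day 0, and Crabp1 at day 3 gave -1.60 (SE 0.52, adjusted p = 0.352). Background, extra chromosomes, sex chromosomes and the kind of mutation cannot be told apart here, since line 319 differs from lines 14 and 19 in all of them.

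**Figure D5:**
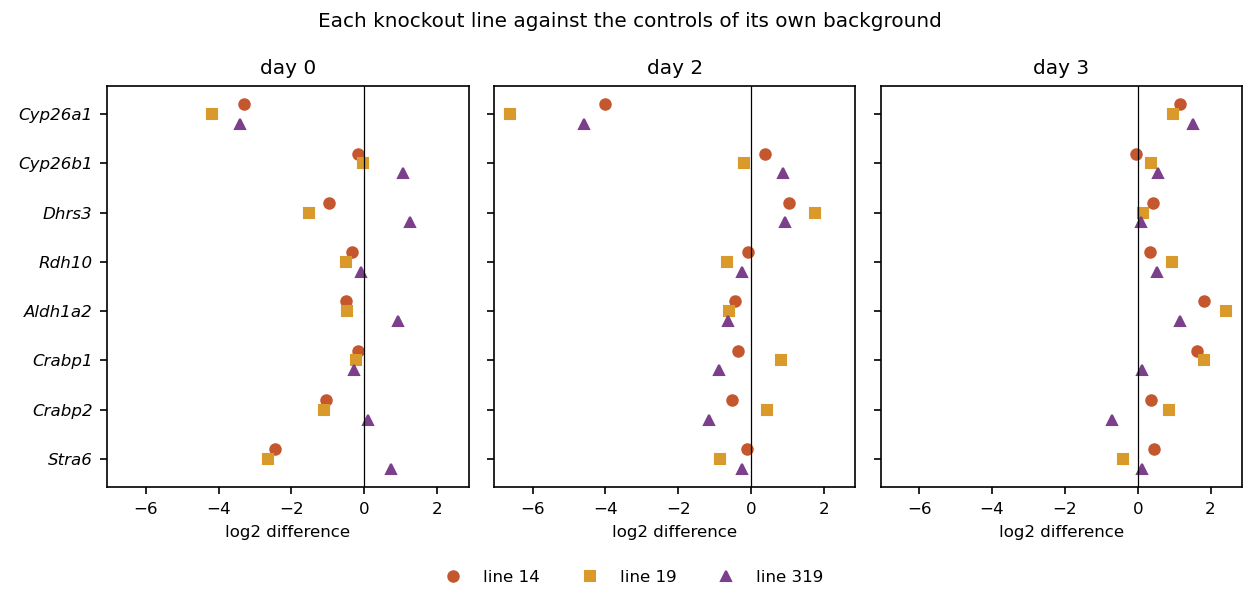
Log2 difference of each knockout line from the controls of its own background (horizontal, 1 panel per day on the same scale) for the 8 tested genes; circles, squares and triangles are lines 14, 19 and 319. The 3 symbols of Cyp26a1 lie together left of 0 at days 0 and 2 and right of it at day 3, and those of Stra6 at day 0 lie apart, at -2.44, -2.64 and 0.75.

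Genes of nearest pattern were sought for each of the 8, by the smallest root mean square difference in log2 CPM over the 18 samples after centring each gene, among 12147 genes. Cyp26a1 was nearest to Lhx1, a transcription factor of the streak and head organizer, at 1.32, then to Plxna2 at 1.62 and the arginase gene Arg1 at 1.65. Lhx1 is also in the mesendoderm list above. For Cyp26b1 the nearest were Zadh2 (0.43), Akr1c12 (0.48) and Golt1a (0.53), and for Dhrs3 Golt1a (0.64), Irx1 (0.65) and Rgma (0.69). Crabp2 and Stra6 shared their nearest genes: Rasl10b, Kynu and Ptn, at 0.84, 1.00 and 1.02 for Crabp2 and at 1.10, 1.10 and 1.27 for Stra6. Aldh1a2 was nearest to Papss2 (0.37), Limch1 (0.43) and Kitl (0.47), and Crabp1 to Efna2, Tmem9b and Pcdhb22 (each 0.45). Rdh10 was nearest to Arf2 (0.22), Jpt2 and Nt5dc3 (both 0.24). The measure grows with how much a gene varies, so its values are not compared between the 8 genes.

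Other genes of the pathway gave the setting for these 9. A list of 32 other retinoid handling genes had 21 tested. At day 0 edgeR called 0 of them by genotype (0.854% of all genes), and 0 had an unadjusted p under 0.05, a threshold whose share over all genes is not given here. At day 2 the reductase Dhrs4 was higher (1.14, SE 0.27, adjusted p = 0.0449) and the retinal reductase Rdh11 lower (-0.69, SE 0.14, adjusted p = 0.0255), 2 of 21 where 1.6% of all genes were called. At day 3, where 5.2% were called, Rdh11 was again lower (-0.57, SE 0.14, adjusted p = 0.0344), and Aldh1a1, a second retinal dehydrogenase, was higher, at 1.32 ± 0.354 against 0.212 ± 0.0764 CPM (2.64, SE 0.47, adjusted p = 0.00692). The reads of Aldh1a1 may be shared with its close copy Aldh1a7, so both levels are uncertain. The median log2 difference of the 21 was -0.09, 0.20 and 0.16 at days 0, 2 and 3, beside 0.01, 0.02 and 0.02 for all genes tested.

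With retinoic acid, 4 of these 21 rose and 1 fell in controls, a step at which 21.4% of all genes were called. Among those that rose, Aldh1a7 rose by 3.02 (SE 0.50, edgeR adjusted p = 6.14e-04), Stra6l, a relative of Stra6, by 1.40 (SE 0.48, adjusted p = 0.0479) and Rdh12 by 1.17 (SE 0.30, adjusted p = 0.0115). Adh5 fell by 0.63 (SE 0.13, adjusted p = 0.00254). At day 2 against day 0, where 35.2% of all genes were called, 4 rose and 6 fell, among them Rdh11 (1.34, SE 0.15, adjusted p = 9.14e-06) and Aldh1a3 (-4.34, SE 0.59, adjusted p = 5.87e-05).

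All 12 nuclear receptor and cofactor genes were tested. None was called by genotype in edgeR at day 0 or day 2, with 4 and 1 at an unadjusted p under 0.05. These 2 counts lack the share of all genes at that threshold and are not read further. At day 3, where 5.2% of all genes were called, 2 were lower in the knockouts: Rarg, at 50.3 ± 28.5 against 91.4 ± 14.3 CPM (-0.95, SE 0.23, adjusted p = 0.026), and Rara, at 56.2 ± 4.93 against 82.8 ± 1.51 CPM (-0.56, SE 0.15, adjusted p = 0.0453). In controls, from day 2 to day 3, Rarb rose by 7.51 (SE 0.52, adjusted p = 1.21e-07), Nrip1 by 2.90 (SE 0.32, adjusted p = 1.57e-05) and Rara by 1.25 (SE 0.15, adjusted p = 4.10e-05), while Rxrg fell by 1.56 (SE 0.42, adjusted p = 0.015) and Rarg by 0.65 (SE 0.22, adjusted p = 0.0487). Exons of Rarb overlap those of Top2b on the other strand, so its level is uncertain. From day 0 to day 2 in controls, 1 of the 12 was called higher (Rxrg) and 2 lower (Rara and Ncoa3), where 35.2% of all genes were called. Exons of Ncoa3 overlap those of Sulf2 on the other strand.

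Of 22 retinoic acid target genes, all tested, 22 rose in controls with retinoic acid, where 12.5% of all genes did. The list holds known targets of retinoic acid, so its direction at that step is no independent evidence. Stra8 rose by 9.88 (SE 0.74, edgeR adjusted p = 2.54e-07). Hoxb5 and Cdx1 held at most 3 counts in any day 2 control, and were at least 256.6-fold and 190.6-fold higher, computed with 3 counts per library. From day 0 to day 2 in controls, 1 of the 22 was called higher (Foxa1) and 9 lower, where 35.2% of all genes were called. Among the 9 were Cdx1, Meis1, Tshz1 and Zfp703. By genotype, 1 was called at day 0 (Zfp703, -1.57, SE 0.24, adjusted p = 0.00519). At day 3, 4 were higher in the knockouts, against 2.75% of all genes: Meis1 (1.16, SE 0.19, adjusted p = 0.00477), Hoxa3 (0.94, SE 0.24, adjusted p = 0.0335), Hoxb6 (1.84, SE 0.47, adjusted p = 0.039) and Foxa1 (1.26, SE 0.34, adjusted p = 0.0445). The median difference of the 22 at day 3 was 0.91 and that of the 8 tested retinoid genes 0.45, beside 0.02 over all genes. Hoxa3, Hoxb5, Meis1 and Zfp703 each overlap another annotated gene, and since the counting of strand is not given in the sources used here, their levels are uncertain.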

How the data were processed

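Per the labels' protocols, poly(A)+ RNA went into a stranded TruSeq preparation, with 4 technical replicates for each of 18 biological samples. The authors deposited raw counts per Ensembl transcript, 1 file per library. The submitters' processing notes name bcl2fastq 2.17.1.14, STAR 2.4.0k, SAMtools, HTSeq and mm10. The annotation release, counting mode and strand setting are not given in the sources used here.

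Transcripts were matched to GENCODE M21 on GRCm38 (108214 of 110379; the others held 1.44% to 2.48% of a library's counts). A read is counted for each transcript it overlaps, so 1 transcript stood for its gene, the one with the largest sum over 72 libraries. Technical replicates differed by little more than counting error (chi-square per degree of freedom 1.01 to 1.03) and were summed. HM1 replicates 1 and 2 and line 1A4 are control replicates 1, 2 and 3, and lines 14, 19 and 319 are knockout replicates 1, 2 and 3.

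edgeR 4.0.16 (R 4.3.3, limma 3.58.1) was run with TMM scaling, filterByExpr on the 6 groups (18273 genes kept) and a robust quasi-likelihood fit of the 6 groups plus genetic background, with 11 residual degrees of freedom and a common biological coefficient of variation of 0.246. Benjamini-Hochberg adjustment ran over all 18273 genes, with calls at an adjusted p below 0.05. Alternatives included DESeq2 1.42.0, limma-voom, other filters and designs, and leaving out each series. Days of 1 series come from the same line, and 16 of 18 same-series correlations of deviations exceeded 0.1. Limits for 0 counts use 3 counts and cover counting error only. The fits were tested on simulated data.

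The genes and lists were chosen with earlier results of these data known. All 9 genes were named. From each list, up to 4 called genes per direction were named where the higher group averaged 1 CPM or more. This was done in the genotype comparisons and the control step from day 2 to day 3. For the control step from day 0 to day 2, only some of the called genes were named. Results for 2 genes of these lists are not reported here. The 3 nearest patterns were taken per tested gene, leaving out predicted gene names and chromosomes 8, 12, X, Y and the mitochondrial genome. Promoters are from RefSeq on GRCm38.p6.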

Additional observations from a re-analysis of the deposited data

Results flagged for a closer look

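Cyp26a1 was set apart because its genotype difference had a different sign at different days and the change itself passed a test. The knockout minus control difference moved by 5.94 on the log2 scale from day 2 to day 3 (SE 0.55, edgeR adjusted p = 2.33e-04), from -4.71 to 1.24. All 3 knockout lines shared both directions against the controls of their own background, and day 2 knockout samples held 14, 0 and 3 counts of the gene. Groups of 3 are too small for the test of single outlying samples, which was therefore not run.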

How the results depend on the processing

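Of 72 results for single genes, 26 were called, and over all alternatives (1224 values) none of the called results changed sign. Called results lost their call in 17 of 156 values with 1 series left out and in 6 of 286 values under other settings, and those that bear on a named difference are given with it. With 3 samples per group and single lines, a difference that missed the threshold is not shown to be absent, and genes with few counts (Cyp26c1, Stra6 at day 0, Cyp26a1 in day 2 knockouts) are limited by depth.

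Of the 8 tested genes, the number called by genotype at day 0 was 2 within the HM1-derived samples (1 in the reported fit), at day 2 it was 2 with DESeq2 and 0 with day 2 fitted alone (1), and for the change of the difference from day 2 to day 3 it was 2 with DESeq2, without a filter and within the HM1-derived samples (1). With each series left out in turn these counts ran from 1 to 2 at day 0, 1 to 2 at day 2, 0 to 3 at day 3 (0 without HM1 replicate 1 or 2, 1 without line 1A4 or line 14) and 1 to 2 for the change from day 2 to day 3. DESeq2 called 556, 1400 and 2063 genes of the whole table by genotype at days 0, 2 and 3, against 156, 292 and 951 with edgeR, and day 2 alone gave 0. The cause of these shifts was not tested. Some of these fits also hold fewer samples.

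All changes of sign were in results that were not called. The Aldh1a2 difference at day 0 was -0.50 within the HM1-derived samples, -0.042 with the day alone, -0.0469 with limma-voom with or without a random replicate block, and -0.0574 without the background term. For Crabp1, the day 2 difference was 0.32 within the HM1-derived samples, 0.0676 without the background term and 0.0036 on summed transcripts. Its knockout step from day 0 to day 2 was -0.26 without line 19 day 2, and its change of the difference over that step was -0.34 without line 19 day 2, -0.0091 with limma-voom and -0.0083 with the random replicate block. Crabp2 gave 0.0389 at day 2 within the HM1-derived samples and -0.22 for the change from day 0 to day 2 without line 19 day 2. Cyp26b1 gave -0.10 at day 0 within the HM1-derived samples and 0.0816 for the knockout step from day 0 to day 2 without line 19 day 2.

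With each series left out, the day 0 differences ran from -0.42 to 0.26 (Aldh1a2), -0.35 to 0.14 (Crabp1) and -0.0516 to 0.46 (Cyp26b1). Day 2 differences ran from -0.57 to 0.33 (Crabp1) and -0.79 to 0.0406 (Crabp2), and day 3 differences from -0.0797 to 0.54 (Crabp2) and -0.15 to 0.31 (Stra6). The step from day 0 to day 2 ran from -0.33 to 0.13 for Dhrs3 in controls and from -0.31 to 0.61 for Crabp1 in knockouts. The change of the difference over that step ran from -0.39 to 0.53 (Crabp1), -0.42 to 1.07 (Crabp2), -0.22 to 0.31 (Rdh10) and -0.0125 to 3.29 (Stra6), and from day 2 to day 3 it ran from -0.50 to 0.0568 (Cyp26b1).

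A replicate block on the series, which pairs the days of a line, could be fitted for 6 comparisons of days and changed the call of 0 results for the 8 genes, with 3, 5, 5, 7, 0 and 1 called. Genotype comparisons could not be blocked, since a series has 1 genotype, and a random replicate block with limma-voom (correlation 0.00947) called 1, 1 and 3 of the 8 at days 0, 2 and 3.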
